A study of Mus musculus with 12 samples.

Results

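The RNA of differentiating C2C12GFP muscle cells grown on Collagen I was compared with that of the same cells grown on Geltrex™, gene by gene. The comparison holds the 3 Collagen I and the 3 Geltrex™ samples, 6 of the 12 samples of the series, chosen by their labels and not by any measured value. C2C12 is a mouse myoblast line that fuses into multinucleated myotubes once serum is lowered, and the C2C12GFP cells also express green fluorescent protein. All groups carried GFP and were differentiated in the same low-serum medium, and by the labels they differed in the plate surface: Collagen I, Geltrex™ as a thin gel, fibronectin, or no coating (control). Geltrex™ is a basement membrane extract with reduced growth factors, made mainly of laminin, Collagen IV, and entactin, so a difference from Collagen I cannot be assigned to 1 protein, nor told apart from the difference between a coat and a gel. All samples come from 1 cell line. The sources used here name neither on which day the RNA was taken nor whether the 3 samples of a group were separate cultures, so that the p-values measure the spread between these samples, which may be technical.

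Cells bind fibrillar collagen through integrins with the α1, α2, α10, or α11 chain and through the discoidin domain receptors, and bind laminin through integrins with the α3, α6, or α7 chain and through dystroglycan. Myoblasts leave the cell cycle, turn on myogenin, fuse, and then build sarcomeres, so that cell cycle genes and sarcomere genes usually move in opposite directions during differentiation. The interferon system is a separate program that nearly every cell can run: sensors of foreign nucleic acid or secreted interferon act through transcription factors that switch on effectors that block viruses, raise antigen presentation, and amplify the response.

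The 6 libraries held between 22520404 and 26231581 counts on genes. Levels are given as CPM, the counts of a gene over the TMM-scaled library size, which allow a gene to be compared between samples but not with another gene. The 10 skeletal muscle markers were all detected in every sample, and their summed level was between 8481 and 9281 CPM on Collagen I and between 4172 and 4606 CPM on Geltrex™. Of the 12 leukocyte markers 3 passed the filter on low counts, and *Ptprc*, *Adgre1*, and *Cd3e* had no count in any of the 6 samples. Of the 8 endothelial markers 2 passed, and *Tie1* had no count. Of the 8 fibroblast and smooth muscle markers 5 passed, and at an adjusted p of at most 0.05, 1 was higher on each coating. *Pi16* was the one higher on Collagen I (log2 fold change 1.36, adjusted p = 0.000176, SE 0.22), and the one higher on Geltrex™ was under 2-fold. The part of such cells in the results was not tested. The 3 Geltrex™ samples were far more alike than those of the other groups, with a biological coefficient of variation of 0.0374 against 0.120 on Collagen I, 0.112 in the control, and 0.114 on fibronectin. Their counts differed by more than counting noise, with a chi-square per degree of freedom between 2.18 and 4.54, which technical replicates can also show. They were kept as 3 samples because the labels give 3. On Collagen I, replicate 3 stood apart: genes of the mitochondrial genome took 11.5% of its counts, against 6.39% and 6.90% in the other two and 5.68% to 6.19% on Geltrex™. The main counts of genes are therefore also given without that sample.

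Of the 55536 genes in the table, 14499 passed the filter and were tested. A differentially expressed gene (DEG) had an adjusted p of at most 0.05 in edgeR's quasi-likelihood test and a fold change of at least 2. A total of 1352 genes were DEGs (9.32%), 691 of them higher on Collagen I (4.77% of genes tested) and 661 higher on Geltrex™ (4.56%). Without Collagen I replicate 3 the counts were 652 and 659, and with at least 10 counts required in every sample they were 388 and 467. With the 3 Geltrex™ samples summed into 1 they were 432 and 570. At an adjusted p of at most 0.05 with any fold, 2633 genes were higher on Collagen I (18.2%) and 2751 on Geltrex™ (19%). The median log2 fold change over all genes tested was 0.026, with 5% of genes below -0.997 and 5% above 1.10. Log2 fold changes are Collagen I minus Geltrex™, so that a positive value is higher on Collagen I. The largest differences were on the Geltrex™ side. Among DEGs averaging 1 CPM or more with no overlap of samples, the 10 lowest log2 fold changes belonged to *Oas2*, *C3*, *Ifi44*, *Oas1a*, *Iigp1*, *Ifit1*, *Saa3*, *Usp18*, *Trim30a*, and *Apol8*. The 10 highest belonged to *B230362B09Rik*, *Gm28653*, *Myl2*, *Tm6sf1*, *5430431A17Rik*, *Atp6v1c2*, *Myh7b*, *Padi2*, *Fsd2*, and *AI480526*. Of these last, *B230362B09Rik*, an uncharacterised gene, had 140 counts on Collagen I and 4 on Geltrex™, a ratio of 33.4 (95% exact interval 12.8 to 124). That interval covers counting error only. The Collagen I samples were uneven, with 17, 33, and 90 counts, the last in replicate 3, which stood apart. Its log2 fold change in the fit was 4.96 (adjusted p = 0.00344, SE 1.16). *Atp6v1c2*, a subunit of the vacuolar proton pump, was at 9.97, 10.5, and 7.89 CPM in the Collagen I samples and 1.88, 0.989, and 1.22 CPM on Geltrex™ (log2 fold change 2.79, adjusted p = 9.85e-08, SE 0.22), and *Padi2*, which converts arginine in proteins to citrulline, at 7.76, 7.02, and 6.34 CPM and 1.03, 1.07, and 1.04 CPM (log2 fold change 2.75, adjusted p = 4.66e-06, SE 0.31). *AI480526* shares 66.6% of its exon length with a gene on the other strand. Groups that do not overlap were common in this comparison, with 54.7% of all genes tested.

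**Figure D1:**
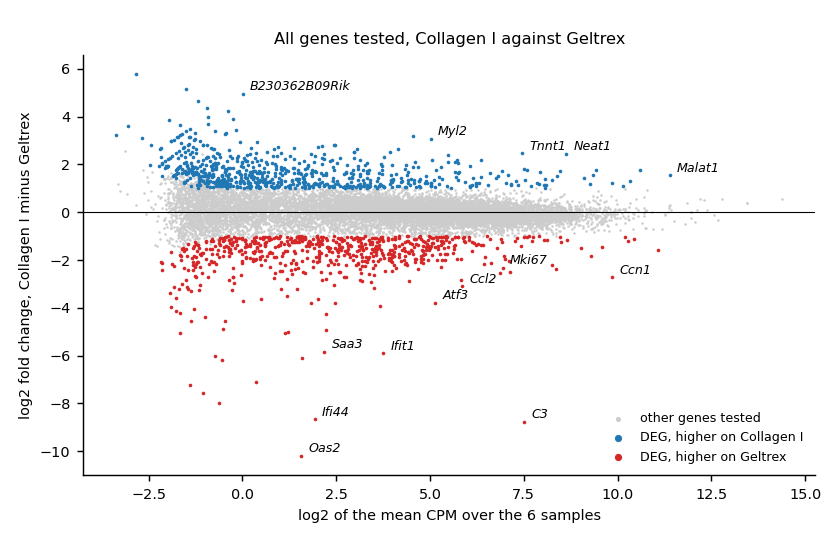
Log2 fold change (Collagen I minus Geltrex™, vertical axis) against the log2 of the mean CPM over the 6 samples (horizontal axis) for the 14499 genes tested. Blue points are the 691 DEGs higher on Collagen I, red points the 661 DEGs higher on Geltrex™, and grey points the other genes. The points farthest from 0 are red and include *Oas2*, *Ifi44*, and *C3*.

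The clearest group on the Geltrex™ side was the interferon-induced genes. Of 50 interferon effectors listed, 40 were tested, and 28 of them were DEGs, all higher on Geltrex™, with a median log2 fold change of -1.75. At an adjusted p of at most 0.05, 37 differed, all higher on Geltrex™. *Oas2* (ENSMUSG00000032690, chr5:120730333-120749853, GRCm38), which senses double-stranded RNA and makes the messenger that activates RNase L, had no read in any Collagen I sample and 4.48, 5.81, and 7.53 CPM in the Geltrex™ samples. That is 0 against 413 counts, at least 144-fold higher on Geltrex™ with 0 taken as 3 counts over the group. *Oas3*, of the same family, had 0 against 67 counts, at least 23.4-fold higher. *Ifi44* (ENSMUSG00000028037, chr3:151730922-151749960) had 1 count in the Collagen I samples together and 525 in the Geltrex™ samples, a ratio of 550 (95% exact interval 98.3 to 21760). *Oas1a* had 1 against 177 counts (ratio 185, interval 32.8 to 7363). These intervals cover counting error only. The 10 effectors that were not tested, among them *Mx1* with 5 against 32 counts and *Rsad2* with 1 against 22, had at most 16 counts in any of the 6 samples. An effector that passed the filter through its Geltrex™ counts alone had to differ, and with at least 10 counts required in every sample 17 effectors were DEGs higher on Geltrex™.

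*Ifit1* (ENSMUSG00000034459, chr19:34640871-34650009), which binds foreign RNA caps and stops their translation, was at 0.433, 0.743, and 0.0863 CPM in the Collagen I samples and 19.7, 22.3, and 37.2 CPM on Geltrex™, with a log2 fold change of -5.91 (adjusted p = 2.12e-08, SE 0.39). *Isg15*, a ubiquitin-like protein attached to other proteins during the response, was at 0.217, 0.483, and 0.388 CPM against 3.59, 3.91, and 5.10 CPM. *Usp18*, which removes ISG15 and dampens the receptor, was at 0.130, 0.149, and 0.0863 CPM against 3.20, 3.58, and 5.997 CPM. In all of these genes every Geltrex™ sample lay above every Collagen I sample. *Trim30a* had 0.130, 0.223, and 0.0431 CPM in the Collagen I samples and 4.78, 4.90, and 3.88 CPM on Geltrex™. *Bst2*, a membrane protein that tethers budding virus, rose from 1.501 on Collagen I to 8.63 CPM on Geltrex™, and *Ifi27l2a* from 2.25 on Collagen I to 20.5 CPM on Geltrex™. The effectors were uneven: *Ifit2* (log2 fold change -0.44), *Ifi35* (-0.40), and *Ifitm2* (0.21) were close to 0, where *Ifit1* was at -5.91. *Isg15*, *Ifi27l2a*, *Bst2*, *Mx1*, *Rsad2*, and *Oas3* are shown although outside the rule for named genes, and were chosen after their values were seen.

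Of the 18 interferon-inducible GTPases listed, which attack the vacuoles of intracellular parasites, 15 were tested and 14 were DEGs, all higher on Geltrex™ (median log2 fold change -2.56). *Iigp1* (ENSMUSG00000054072) had 6 counts on Collagen I and 414 on Geltrex™, a ratio of 72.3 (95% exact interval 32.9 to 198). *Gbp3* was at 0.477, 0.483, and 0.388 CPM in the Collagen I samples and 7.65, 9.19, and 9.65 CPM on Geltrex™ (log2 fold change -4.28, adjusted p = 2.12e-09, SE 0.23). *Gbp7* had a log2 fold change of -3.81 (adjusted p = 2.57e-07, SE 0.32) and *Irgm2* a log2 fold change of -2.90 (adjusted p = 1.09e-08, SE 0.18). With at least 10 counts required in every sample 4 of the GTPases were DEGs higher on Geltrex™. The smallest difference among those tested was that of *Gbp8*, at -0.98. Members of the Oas, Ifit, Gbp, Irgm, and Apol9 families have close copies, and how reads that map to several genes were counted is not given in the sources used here, so the split between family members is uncertain.

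**Figure D2:**
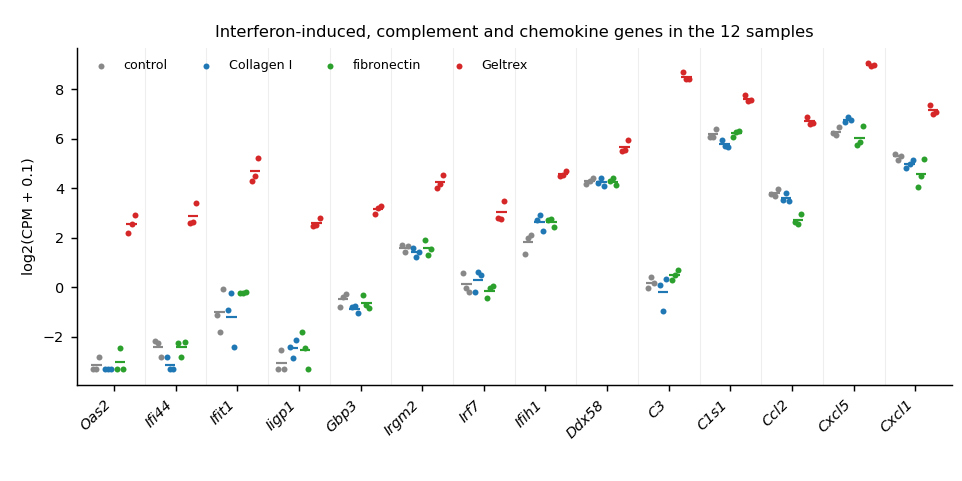
Levels of 14 interferon-induced, complement, and chemokine genes as log2(CPM + 0.1), with 1 point per sample, a line at the mean of the 3 samples, and the 4 groups side by side. The red Geltrex™ points lie above the points of the other groups in each gene, and the lowest points of *Oas2* and *Ifi44* are samples with no count.

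To show what these genes share in sequence, their RefSeq promoters (GRCm38.p6, 250 bases before to 50 after the start) were searched on both strands for the core of the interferon-stimulated response element (ISRE), to which transcription factors of the interferon response bind, written GAAANNGAA. The letters were found in 939 of 13353 promoters of all genes tested (7.03%), with a promoter matched for 72.3% of those genes. Of the 47 effector, GTPase, and sensor genes that were DEGs higher on Geltrex™, 34 were matched to a promoter, and 27 of their 39 promoters held the letters. The 34 genes are 72.3% of the group, under the 80% set for such a share. The shares over the group and over all genes tested are therefore void, and the matches are given as a description. The GAS letters TTCNNNGAA overlapped the ISRE letters in 1 of the 27. Windows of 6 of these promoters are shown because they belong to genes whose values are given above. Each runs 5′ to 3′ on the gene's strand, with the ISRE letters, or their reverse complement, in capitals:
*Ifi44*, chr3:151749885-151749933 (minus strand): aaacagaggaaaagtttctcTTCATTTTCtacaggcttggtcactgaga
*Oas1a*, chr5:120907511-120907559 (minus strand): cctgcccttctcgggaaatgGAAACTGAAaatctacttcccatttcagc
*Ifit1*, chr19:34640785-34640833 (plus strand): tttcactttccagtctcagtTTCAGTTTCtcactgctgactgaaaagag
*Trim30a*, chr7:104465200-104465248 (minus strand): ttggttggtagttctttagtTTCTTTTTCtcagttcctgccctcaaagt
*Gbp3*, chr3:142559980-142560028 (plus strand): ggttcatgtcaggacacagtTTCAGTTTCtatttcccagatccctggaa
*Irgm2*, chr11:58214893-58214941 (plus strand): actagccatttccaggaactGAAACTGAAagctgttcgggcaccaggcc
The first capital lies 3 bases before the RefSeq start of *Ifi44*, 14 before that of *Oas1a*, 84 before that of *Ifit1*, 35 before that of *Trim30a*, 44 before that of *Gbp3*, and 64 before that of *Irgm2*. A RefSeq start can lie inside the GENCODE bounds of the gene, as for *Ifi44* and *Irgm2*. *Ifit1* held the letters at 3 places, and *Oas1a* and *Gbp3* at 2 each. Over all DEGs, 77 of 543 promoters on the Geltrex™ side and 38 of 537 on the Collagen I side held the letters, but with 68.7% and 60.2% of these genes matched those shares are void as well.

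Of 16 tested sensors of nucleic acid and their relay genes, 5 were DEGs, each higher on Geltrex™, beside 4.56% of all genes tested. Another 8 did not pass an adjusted p of 0.05. *Ifih1*, the MDA5 sensor of long double-stranded RNA, was at 6.46, 7.51, and 4.66 CPM in the Collagen I samples and 22.1, 23.2, and 26.0 CPM on Geltrex™ (log2 fold change -1.93, adjusted p = 7.17e-07, SE 0.18). *Ddx58*, the RIG-I sensor, was at 18.5, 20.9, and 16.7 CPM and 45.6, 46.7, and 60.8 CPM (log2 fold change -1.45, adjusted p = 2.74e-07, SE 0.12). *Zbp1*, a sensor of left-handed nucleic acid, had a log2 fold change of -3.63 (adjusted p = 3.74e-07, SE 0.32), and *Dhx58*, a regulator of the RNA sensors, a log2 fold change of -2.74 (adjusted p = 3.81e-05, SE 0.38). The relay genes *Mavs* and *Tbk1* did not pass: *Mavs* was at 25.1 ± 1.30 CPM in the Collagen I samples and 25.1 ± 0.899 CPM on Geltrex™ (adjusted p = 0.977), and *Tbk1* at 50.9 ± 6.26 and 51.6 ± 2.29 CPM (adjusted p = 0.909). *Ifnb1*, the first interferon a cell usually makes, had 1 count in 1 Geltrex™ sample and none in the other samples of either coating, which is too few to compare. *Ifna4*, *Ifnk*, and *Ifnl2* had no count.

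The signaling genes of the pathway were split. *Irf7*, the factor that amplifies interferon production, was at 0.780, 1.41, and 1.29 CPM in the Collagen I samples and 6.83, 6.71, and 11.1 CPM on Geltrex™ (log2 fold change -2.81, adjusted p = 1.05e-06, SE 0.27). *Irf9* was at 11.4, 10.3, and 9.92 CPM and 20.2, 21.1, and 28.4 CPM (log2 fold change -1.14, adjusted p = 1.42e-05, SE 0.14). In the other direction lay *Socs3*, a feedback inhibitor of JAK signaling, at 18.7, 14.8, and 21.3 CPM in the Collagen I samples and 10.1, 8.57, and 7.80 CPM on Geltrex™ (log2 fold change 1.04, adjusted p = 0.000105, SE 0.16), and, with under 2-fold differences, *Irf1* (log2 fold change 0.69, adjusted p = 2.75e-05, SE 0.09) and *Stat2* (log2 fold change 0.41, adjusted p = 0.00786, SE 0.11). *Stat2* missed the threshold without Geltrex™ replicate 1 (0.34) and with the replicate block and the GC content covariate together (0.35). It also missed the threshold with the 3 Geltrex™ samples summed into 1 (0.41). The receptor chains did not differ by 2-fold: *Ifnar1* had a log2 fold change of -0.21 (adjusted p = 0.0371, SE 0.08) that missed the threshold without any 1 of the samples other than Collagen I replicate 2 (-0.17 to -0.25), and *Ifnar2* (adjusted p = 0.14) and *Ifngr1* (adjusted p = 0.59) missed the threshold. Over the 20 tested signaling genes the median was -0.03, with 3 DEGs higher on Geltrex™ and 1 on Collagen I, beside 4.56% and 4.77% of all genes tested. In antigen presentation by MHC class I, 4 of 21 genes tested were DEGs, all higher on Geltrex™, beside the same 4.56%. *H2-Q4* had a log2 fold change of -1.62 (adjusted p = 5.88e-07, SE 0.15), with 19.1% of its exon length overlapped by a gene on the other strand, and *Tap1*, the peptide transporter, a log2 fold change of -1.41 (adjusted p = 0.00812, SE 0.37) that missed the threshold with the 3 Geltrex™ samples summed into 1 (-1.42) and with the replicate block and the GC content covariate together (-1.35). *H2-T10* had a log2 fold change of -1.15 (adjusted p = 0.0176, SE 0.35), and missed the threshold without Collagen I replicate 1 (-1.07) or 2 (-0.90) or Geltrex™ replicate 2 (-1.12) or 3 (-1.04). It also missed the threshold with the 3 Geltrex™ samples summed into 1 (-1.16). *B2m*, the light chain of MHC class I, was at 337 ± 27.3 CPM in the Collagen I samples and 544 ± 14.6 CPM on Geltrex™ (SD, n = 3), under 2-fold (log2 fold change -0.69, adjusted p = 0.00072, SE 0.13).

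Of 13 tested complement genes 3 were DEGs, all higher on Geltrex™, beside 4.56% of all genes tested, and *C3* stood far from the rest. *C3* (ENSMUSG00000024164, chr17:57203970-57228136), the central component whose cleavage starts opsonization, was at 0.953, 0.409, and 1.16 CPM in the Collagen I samples and 408, 339, and 336 CPM on Geltrex™, with a log2 fold change of -8.77 (adjusted p = 8.58e-14, SE 0.20). It was at 1.05 ± 0.188 CPM in the control and 1.31 ± 0.200 CPM on fibronectin. The proteases of the C1 complex were higher too: *C1s1* was at 62.1, 51.5, and 50.1 CPM in the Collagen I samples and 215, 182, and 186 CPM on Geltrex™ (log2 fold change -1.83, adjusted p = 9.58e-09, SE 0.11), and *C1ra* at 24.9, 23.4, and 23.1 CPM and 61.1, 58.3, and 54.4 CPM (log2 fold change -1.28, adjusted p = 1.95e-07, SE 0.11). The other 10 tested complement genes were not DEGs, and the C1q chains *C1qa*, *C1qb*, and *C1qc*, which macrophages make, had no count in any of the 6 samples. *Saa3*, an acute-phase apolipoprotein, was at 0.0433, 0.111, and 0.302 CPM against 9.18, 8.61, and 8.93 CPM (log2 fold change -5.84, adjusted p = 1.1e-08, SE 0.36). *Apol8* was at 0.433, 0.260, and 0.173 CPM in the Collagen I samples and 8.97, 7.66, and 10.4 CPM on Geltrex™.

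Of 22 tested chemokine and cytokine genes, 10 were DEGs higher on Geltrex™ and 1 was a DEG higher on Collagen I, and with at least 10 counts required in every sample 6 were DEGs higher on Geltrex™. *Ccl2*, which recruits monocytes, was at 11.5, 13.8, and 11.1 CPM in the Collagen I samples and 117, 96.8, and 98.2 CPM on Geltrex™ (log2 fold change -3.10, adjusted p = 2.52e-10, SE 0.12). The neutrophil attractants *Cxcl5* (100.4, 116, and 108 against 524, 492, and 499.7 CPM) and *Cxcl1* (28.3, 31.6, and 34.9 against 163, 129, and 135 CPM) did not overlap between the groups either. *Ccl9*, a further attractant of myeloid cells, had a log2 fold change of -1.42 (adjusted p = 0.00114, SE 0.28). The exception in direction was *Cxcl14*, at 0.484 ± 0.0995 CPM in the Collagen I samples and 0.0280 ± 0.0242 CPM on Geltrex™, which was named after its value was seen. In the NF-κB pathway, 2 of 20 tested genes were DEGs, beside 9.32% of all genes tested. Both were feedback genes higher on Geltrex™: *Nfkbiz* (log2 fold change -1.99, adjusted p = 1.39e-06, SE 0.20) and *Tnfaip3*, the A20 inhibitor (log2 fold change -1.05, adjusted p = 4.62e-07, SE 0.09). Of the leukocyte markers, *Cd14* was at 10.98 ± 1.55 CPM in the Collagen I samples and 7.37 ± 0.661 CPM on Geltrex™, and *Lyz2* at 0.0433 ± 0.0751 and 0.285 ± 0.144 CPM. The summed leukocyte markers were between 11.6 and 14.4 CPM on Collagen I and between 9.06 and 9.91 CPM on Geltrex™. Most of that sum is *Cd14*, and the part of such cells in the results was not tested.

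**Figure D3:**
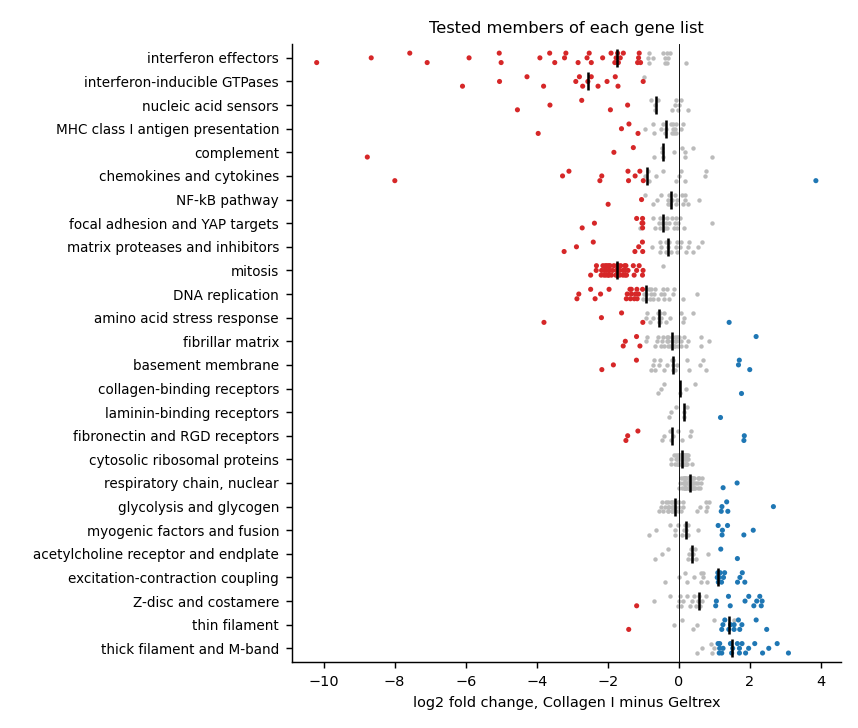
Log2 fold change (Collagen I minus Geltrex™, horizontal axis) of every tested member of 26 gene lists (rows), 1 point per gene, with a black line at the median of the list. Blue and red points are DEGs higher on Collagen I and on Geltrex™, and grey points are the other members. The medians of interferon effectors, interferon-inducible GTPases, mitosis, and DNA replication lie to the left of 0, the filament lists to the right, and ribosomal proteins around 0.

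Of 29 tested focal adhesion genes and YAP targets, 7 were DEGs, all higher on Geltrex™, beside 4.56% of all genes tested. A further 11 did not pass an adjusted p of 0.05. *Ccn1* (ENSMUSG00000028195, chr3:145646976-145649981), a matricellular protein and a target of the mechanosensitive factors YAP and SRF, was at 251, 191, and 285 CPM in the Collagen I samples and 1638, 1555, and 1608 CPM on Geltrex™ (log2 fold change -2.72, adjusted p = 4.65e-05, SE 0.38). *Ccn2*, its relative, was at 120.4, 96.0, and 99.8 CPM and 581, 516, and 547 CPM (log2 fold change -2.38, adjusted p = 4.99e-10, SE 0.10). *Ankrd1*, a stretch-responsive titin-binding protein, had 686, 718, and 845 CPM in the Collagen I samples and 1679, 1710.4, and 1746 CPM on Geltrex™, and *Srf* itself 25.9, 23.4, and 27.7 CPM and 52.2, 48.7, and 57.7 CPM. *Yap1* (log2 fold change 0.02) and *Tead1* (-0.05) were near 0 and *Tead4*, a YAP partner active in muscle, was at 0.92. The cytoplasmic actins *Actg1* (log2 fold change -1.02, adjusted p = 8.48e-07, SE 0.10) and *Actb* (log2 fold change -0.69, adjusted p = 0.000216, SE 0.11) were both higher on Geltrex™.

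*Myc* (ENSMUSG00000022346, chr15:61985391-61990374), the growth-promoting transcription factor, was at 15.3, 13.2, and 13.4 CPM in the Collagen I samples and 106, 97.0, and 96.4 CPM on Geltrex™ (log2 fold change -2.84, adjusted p = 2.51e-08, SE 0.19). The AP-1 member *Fosl1* was at 0.303, 0.483, and 0.388 CPM and 3.20, 4.24, and 3.61 CPM (log2 fold change -3.21, adjusted p = 2.47e-07, SE 0.27), with 57.2% of its exon length overlapped by *Ccdc85b* on the other strand. The feedback genes that ERK signaling switches on were higher as well: *Dusp5* was at 4.38, 3.72, and 6.51 CPM in the Collagen I samples and 29.5, 25.7, and 25.7 CPM on Geltrex™, *Dusp6* at 19.8, 18.7, and 20.6 CPM and 51.2, 47.6, and 43.5 CPM, and the EGF receptor inhibitor *Errfi1* at 43.6, 39.7, and 43.2 CPM and 252, 229.6, and 240.2 CPM. *Edn1*, the peptide endothelin, was at 0.693, 0.706, and 0.776 CPM in the Collagen I samples and 10.5, 10.7, and 9.60 CPM on Geltrex™, *Ptgs2*, the inducible cyclooxygenase, at 17.8, 12.52, and 9.53 CPM and 66.8, 59.6, and 68.9 CPM, and the kinase *Sgk1* at 38.1, 32.6, and 31.4 CPM and 203, 194, and 201 CPM. *Fos* overlapped between the groups, with 6.11, 3.16, and 9.14 CPM in the Collagen I samples and 8.80, 7.91, and 8.97 CPM on Geltrex™ (adjusted p = 0.292). Of 39 tested immediate-early and ERK feedback genes, 18 were DEGs higher on Geltrex™ and 1, *Dusp2*, was a DEG higher on Collagen I. That list and the genes of this paragraph were chosen after their values were seen.

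In the stress response to amino acid shortage, *Atf3* was at 4.85, 3.86, and 5.48 CPM in the Collagen I samples and 68.0, 64.1, and 64.9 CPM on Geltrex™ (log2 fold change -3.80, adjusted p = 1.95e-11, SE 0.13). *Chac1*, which degrades glutathione, had a log2 fold change of -2.18 (adjusted p = 1.35e-07, SE 0.17) and the stress cytokine *Gdf15* a log2 fold change of -1.62 (adjusted p = 2.29e-05, SE 0.21). *Nupr1* lay the other way, at 86.9, 90.4, and 129 CPM against 37.5, 37.8, and 39.9 CPM. Of 22 tested genes of the list, 4 were DEGs higher on Geltrex™ and 1 on Collagen I, beside 4.56% and 4.77% of all genes tested. *Ddit3* (log2 fold change 0.12) was near 0. Differences were small in housekeeping metabolism: the 31 sterol and fatty acid synthesis genes lay between -0.87 and 0.50 on the log2 scale, the 18 oxidative stress genes between -0.80 and 0.66, and the 40 cytosolic ribosomal protein genes between -0.23 and 0.36. At an adjusted p of at most 0.05, 2 sterol genes were higher on Collagen I and 11 on Geltrex™.

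Of the receptors for the coatings, 1 of 7 collagen receptors and 1 of 7 laminin receptors were DEGs, beside 9.32% of all genes tested. The collagen receptor was *Itga10*, at 52.5, 56.3, and 56.8 CPM in the Collagen I samples and 15.6, 16.7, and 16.8 CPM on Geltrex™ (log2 fold change 1.75, adjusted p = 9.16e-07, SE 0.17), with 33.5% of its exon length shared with *Gm42957* on the same strand. *Itga1* (adjusted p = 0.198), *Itgb1* (adjusted p = 0.772), and *Ddr1* (adjusted p = 0.233) missed the threshold, and *Itga2* had 9 counts on Collagen I and 5 on Geltrex™, too few to compare. The collagen-activated kinase *Ddr2* was under 2-fold and higher on Geltrex™ (log2 fold change -0.49, adjusted p = 0.00134, SE 0.10). The laminin receptor was *Bcam*, which binds laminin α5 and was higher on Collagen I (log2 fold change 1.15, adjusted p = 4.35e-05, SE 0.16). *Itga6* had 177, 175, and 129 CPM in the Collagen I samples and 193, 183, and 185 CPM on Geltrex™ (adjusted p = 0.175). *Itga7*, the main laminin integrin of muscle, was at 1285, 1262, and 1164 CPM in the Collagen I samples and 1128, 1122, and 1099 CPM on Geltrex™ (adjusted p = 0.492), and *Dag1*, dystroglycan, at 906, 975, and 760.0 CPM and 746, 745, and 770.1 CPM (adjusted p = 0.0775, past the threshold at 0.32 without Collagen I replicate 3). Among 14 receptors for fibronectin and RGD ligands and heparan sulfate or hyaluronan receptors, *Sdc3* (log2 fold change -1.49, adjusted p = 2.97e-08, SE 0.10), *Cd44* (log2 fold change -1.44, adjusted p = 3.18e-08, SE 0.10), and *Sdc4* (log2 fold change -1.16, adjusted p = 5.93e-08, SE 0.09) were higher on Geltrex™ and *Itga8* (log2 fold change 1.83, adjusted p = 1.54e-05, SE 0.23) and *Itga9* on Collagen I.

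Some genes of the matrix that the cells expressed also differed. *Lum*, a small proteoglycan that spaces collagen fibrils, was at 96.3, 90.1, and 72.7 CPM in the Collagen I samples and 20.7, 19.4, and 17.4 CPM on Geltrex™ (log2 fold change 2.17, adjusted p = 3.47e-08, SE 0.15). *Col1a1*, a chain of Collagen I, was higher on Collagen I by under 2-fold, at 128, 89.1, and 118 CPM against 64.7, 62.8, and 60.5 CPM (log2 fold change 0.83, adjusted p = 7.17e-05, SE 0.12). Higher on Geltrex™ were the thrombospondins *Thbs1* (1163, 1149.7, and 956 CPM in the Collagen I samples and 3232, 3173, and 3296 CPM on Geltrex™) and *Thbs2* (97.6, 98.2, and 83.5 and 223, 212, and 205 CPM), and the tenascin *Tnc* (66.9, 54.99, and 49.7 and 157, 171, and 159.8 CPM), which are adhesion-modulating proteins. Of 39 fibrillar matrix genes 1 was a DEG higher on Collagen I and 4 were DEGs higher on Geltrex™, beside 9.32% of all genes tested that were DEGs in either direction. Of 25 basement membrane genes 3 were DEGs in each direction. The main components of Geltrex™ were not the ones that moved most: *Lama1* had at most 0.288 CPM in any of the 6 samples, *Col4a1* missed the threshold (225, 210.2, and 203 CPM in the Collagen I samples and 217, 222, and 219 CPM on Geltrex™, adjusted p = 0.723), and *Lama2* (log2 fold change -0.75, adjusted p = 0.000905, SE 0.15) and *Nid1* (log2 fold change -0.71, adjusted p = 8.79e-06, SE 0.08) were higher on Geltrex™ by under 2-fold. *Frem1* and *Fras1*, partners in 1 basement membrane complex, went opposite ways, with a log2 fold change of -2.17 (adjusted p = 3.44e-06, SE 0.24) and a log2 fold change of 1.70 (adjusted p = 0.00361, SE 0.40), of which the *Fras1* value missed the threshold with the 3 Geltrex™ samples summed into 1 (1.68). *Col15a1* (log2 fold change 1.99, adjusted p = 0.000575, SE 0.37) was higher on Collagen I and *Col18a1* (log2 fold change -1.20, adjusted p = 1.32e-05, SE 0.15), its closest relative, on Geltrex™.

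Of 27 proteases and inhibitors that remodel matrix, 7 were DEGs, all higher on Geltrex™, beside 4.56% of all genes tested. *Plau*, the urokinase that activates plasminogen, was at 220.3, 213, and 207 CPM in the Collagen I samples and 508, 506, and 499 CPM on Geltrex™ (log2 fold change -1.24, adjusted p = 5.02e-08, SE 0.09). The collagenase *Mmp13* was at 0.303, 0.966, and 1.04 CPM and 4.61, 3.54, and 4.28 CPM (log2 fold change -2.41, adjusted p = 0.000534, SE 0.44). *Adamts9*, which cuts proteoglycans, had a log2 fold change of -1.13 (adjusted p = 0.00233, SE 0.25). The growth factor *Hgf*, an activator of satellite cells, was at 54.4, 68.6, and 35.7 CPM in the Collagen I samples and 204, 199, and 207 CPM on Geltrex™ (log2 fold change -1.94, adjusted p = 1.15e-06, SE 0.19). Of 38 growth factor, IGF, and Notch genes only *Hgf*, *Igfbp3*, and *Igfbp4* were DEGs, beside 9.32% of all genes tested.

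Cell cycle genes were higher on Geltrex™ as a group. Of 48 mitosis genes tested 47 were DEGs higher on Geltrex™, with a median log2 fold change of -1.74, and the groups did not overlap in any of the 48. *Mki67* (ENSMUSG00000031004, chr7:135689784-135716361), the proliferation marker Ki-67, was at 41.7, 39.7, and 41.0 CPM in the Collagen I samples and 186, 208, and 222 CPM on Geltrex™ (log2 fold change -2.33, adjusted p = 3.32e-08, SE 0.16). The topoisomerase *Top2a*, named after its value was seen, was at 51.7, 54.2, and 55.7 CPM and 211, 224, and 226 CPM, and the chromosome motor *Kif4* at 5.46, 5.69, and 5.78 CPM and 27.8, 28.4, and 28.5 CPM (log2 fold change -2.32, adjusted p = 3.89e-09, SE 0.13). *Mybl2*, a transcription factor of dividing cells, had a log2 fold change of -2.49 (adjusted p = 6.53e-06, SE 0.29), and *Espl1*, the separase that releases sister chromatids, a log2 fold change of -2.19 (adjusted p = 7.86e-07, SE 0.21). Of 41 DNA replication genes, 18 were DEGs higher on Geltrex™, and 35 at an adjusted p of at most 0.05 with any fold (median -0.94). *Cdc6*, which loads the replicative helicase, was at 0.563, 1.30, and 1.34 CPM and 6.79, 8.57, and 7.48 CPM (log2 fold change -2.82, adjusted p = 8.61e-07, SE 0.27), and *E2f7*, a repressor made in the same phase, at 2.38, 2.16, and 2.07 CPM and 15.9, 16.6, and 16.0 CPM (log2 fold change -2.87, adjusted p = 6.79e-09, SE 0.17). *Mcm10*, a replication initiation factor, had a log2 fold change of -2.49 (adjusted p = 1.07e-06, SE 0.24), and *Uhrf1*, which maintains DNA methylation at the fork, a log2 fold change of -2.36 (adjusted p = 1.16e-09, SE 0.11). *Ccnd1*, the cyclin that answers to growth signals, was at 15.3, 14.8, and 17.6 CPM in the Collagen I samples and 67.7, 61.8, and 63.4 CPM on Geltrex™ (log2 fold change -2.01, adjusted p = 1.25e-09, SE 0.10).

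The inhibitors that mark exit from the cycle moved less. *Cdkn1a*, the p21 inhibitor, was higher on Collagen I at 948, 832, and 1021 CPM against 586, 532, and 568 CPM, under 2-fold (log2 fold change 0.73, adjusted p = 1.15e-05, SE 0.09), and *Cdkn1c* missed the threshold (adjusted p = 0.487). Of 16 tested exit genes 2 were DEGs, *Ccnd1* and the pocket protein *Rbl1*, both higher on Geltrex™, beside 9.32% of all genes tested. In these bulk samples a larger number of dividing cells and more of this RNA in each cell cannot be told apart, and the same holds for the muscle genes. Of the 65 replication and mitosis DEGs, 53 (81.5%) were matched to a promoter. The E2F letters TTTNNCGC were found in 15 of their 61 promoters (24.6%). Over all genes tested they were found in 1092 of 13353 promoters (8.18%). With 72.3% of all genes tested matched, under the minimum set for such a share, that last share is void. It is given as a description, and no comparison is drawn from it.

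On the Collagen I side the contractile apparatus was the leading group. All 25 tested thick filament and M-band genes passed an adjusted p of 0.05 with higher levels on Collagen I, and 20 of them were DEGs (median log2 fold change 1.48). *Myl2* (ENSMUSG00000013936, chr5:122100951-122113472), the regulatory light chain of slow and cardiac muscle, was at 61.1, 53.9, and 58.7 CPM in the Collagen I samples and 7.05, 6.47, and 7.03 CPM on Geltrex™ (log2 fold change 3.08, adjusted p = 1.02e-09, SE 0.15). *Myh7b*, a slow-type myosin heavy chain, was at 7.84, 7.02, and 7.72 CPM and 1.15, 0.783, and 1.398 CPM (log2 fold change 2.76, adjusted p = 1.28e-06, SE 0.27), and *Mybpc1*, the slow myosin-binding protein, at 31.6, 30.0, and 16.3 CPM and 5.21, 4.202, and 4.10 CPM (log2 fold change 2.53, adjusted p = 3.47e-07, SE 0.22). *Myh6*, a myosin heavy chain of the heart, had a log2 fold change of 2.35 (adjusted p = 1.54e-05, SE 0.29). The higher levels on Collagen I than on Geltrex™ were not limited to slow isoforms. Against the control, the median of the thick filament list was 0.04 on Collagen I and -1.44 on Geltrex™. The embryonic *Myh3* was at 2477, 2606, and 2085 CPM in the Collagen I samples and 727, 621, and 749.9 CPM on Geltrex™ (log2 fold change 1.77, adjusted p = 9.02e-08, SE 0.14). The perinatal *Myh8* was at 147 ± 21.1 and 47.2 ± 7.80 CPM, the fast *Myh4* at 32.3 ± 2.78 and 9.95 ± 1.01 CPM, and the fast *Myh1* at 225 ± 10.4 and 102 ± 6.48 CPM. The fast *Myh2*, with a log2 fold change of 0.99, was just under 2-fold. Myosin heavy chain genes are similar in sequence, so reads may be split among them in a way not given in the sources used here.

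**Figure D4:**
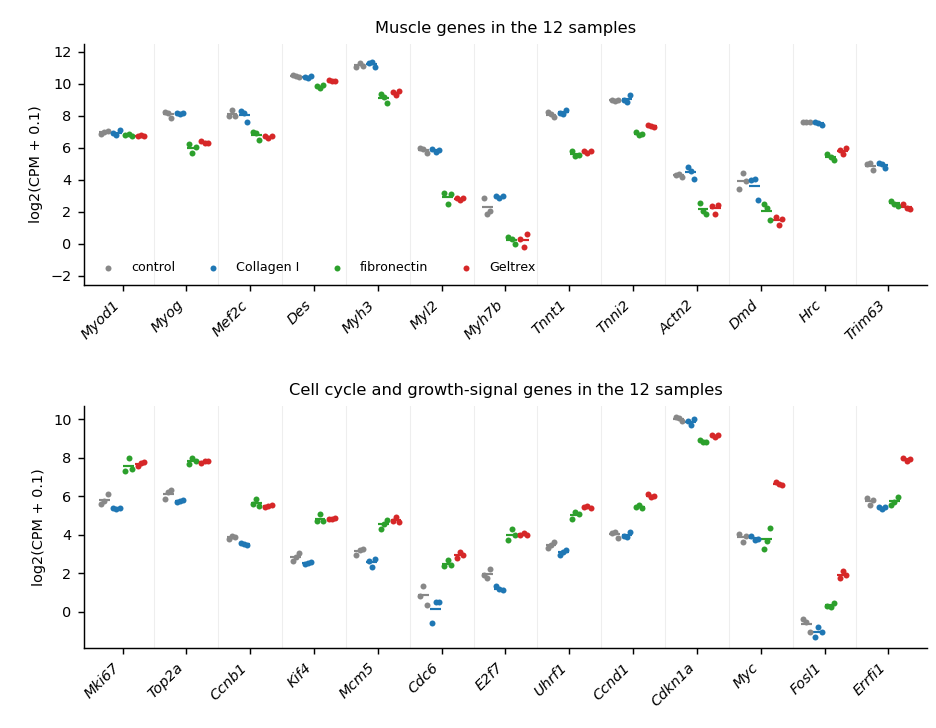
Levels of 13 muscle genes (top) and 13 cell cycle and growth-signal genes (bottom) as log2(CPM + 0.1), with 1 point per sample and a line at the mean of the 3 samples of each group. In most muscle genes the Collagen I and control points lie together above the fibronectin and Geltrex™ points, while *Myc* and *Errfi1* are highest on Geltrex™.

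Of 19 thin filament genes, 12 were DEGs higher on Collagen I and 1, the smooth muscle leiomodin *Lmod1*, was a DEG higher on Geltrex™ (median 1.401). *Tnnt1*, slow troponin T, was at 289.6, 269.7, and 334 CPM in the Collagen I samples and 54.6, 50.8, and 56.1 CPM on Geltrex™ (log2 fold change 2.47, adjusted p = 8.45e-10, SE 0.11). Its fast counterpart *Tnnt3* was at 1031, 1027, and 1144 CPM and 332, 291, and 317 CPM (log2 fold change 1.77, adjusted p = 1.68e-09, SE 0.09), and fast troponin I, *Tnni2*, at 507, 468, and 639 CPM and 168, 167, and 159 CPM (log2 fold change 1.71, adjusted p = 6.36e-09, SE 0.10). *Actc1*, cardiac actin, which is the actin of immature skeletal muscle, was at 160.0, 126, and 115 CPM and 33.7, 27.7, and 27.8 CPM (log2 fold change 2.17, adjusted p = 9.2e-09, SE 0.13). At the Z-disc and the costamere 11 of 29 genes were DEGs higher on Collagen I, among them the α-actinin *Actn2* (28.1, 23.6, and 16.6 CPM against 4.95, 3.58, and 5.23 CPM), *Cav3* (15.6, 12.2, and 15.7 CPM against 3.46, 2.35, and 3.74 CPM), and *Dmd*, dystrophin (15.8, 16.5, and 6.56 CPM against 3.03, 2.18, and 2.84 CPM). *Tcap*, the cap of titin, had a log2 fold change of 2.34 (adjusted p = 7.76e-06, SE 0.27). *Ankrd1* was the DEG of that list in the other direction. Of 22 genes that couple excitation to contraction 12 were DEGs, all higher on Collagen I (median 1.08). The calcium store proteins *Casq1* (log2 fold change 1.85, adjusted p = 4.53e-05, SE 0.26), *Hrc* (log2 fold change 1.71, adjusted p = 1.08e-08, SE 0.11), and *Trdn* (log2 fold change 1.65, adjusted p = 2.01e-08, SE 0.11) and the sodium channel *Scn4a* (log2 fold change 1.78, adjusted p = 2.57e-05, SE 0.23) had the largest differences. Of 13 acetylcholine receptor and endplate genes 2 were DEGs, beside 9.32% of all genes tested. One of them was *Colq*, which anchors acetylcholinesterase (log2 fold change 1.17, adjusted p = 8.53e-05, SE 0.18).

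The myogenic factors differed from each other. *Myod1*, the factor of determination, was at 120.2, 110.5, and 139.9 CPM in the Collagen I samples and 106, 109.7, and 105 CPM on Geltrex™ (adjusted p = 0.0725, past the threshold at 0.28 without Collagen I replicate 2), and *Pax7*, a marker of satellite cells, was at most 0.372 CPM in any of the 6 samples. *Des*, an early muscle filament, was at 1367, 1293, and 1451 CPM and 1184, 1165, and 1162 CPM, a log2 fold change of 0.23 (adjusted p = 0.0323, SE 0.08) that missed the threshold without any 1 of the samples other than Collagen I replicate 2 (0.18 to 0.23). *Myog*, the factor of terminal differentiation, was at 289.7, 276, and 289 CPM in the Collagen I samples and 84.1, 79.5, and 77.7 CPM on Geltrex™ (log2 fold change 1.82, adjusted p = 3.21e-08, SE 0.13), and its partner *Mef2c* at 315, 285, and 197 CPM and 107, 95.9, and 107 CPM (log2 fold change 1.36, adjusted p = 8.6e-06, SE 0.16). The membrane fusion proteins *Mymk* (321 ± 20.6 CPM in the Collagen I samples and 139 ± 8.10 CPM on Geltrex™) and *Mymx* (16.9 ± 2.81 and 7.87 ± 0.447 CPM) were also higher on Collagen I. *Tmem182*, a muscle membrane protein, had a log2 fold change of 1.22 (adjusted p = 7.24e-06, SE 0.14). *Ckm*, muscle creatine kinase, was at 35.6, 38.2, and 44.2 CPM and 10.4, 8.82, and 8.48 CPM (log2 fold change 2.09, adjusted p = 2.3e-07, SE 0.18). Of 20 tested genes 6 were DEGs, all higher on Collagen I, beside 4.77% of all genes tested. The inhibitors of these factors *Id2* (log2 fold change -0.85, adjusted p = 4.47e-05, SE 0.12) and *Id3* (log2 fold change -0.65, adjusted p = 0.0133, SE 0.19) were higher on Geltrex™ by under 2-fold.

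The letters CTANNNNTA, a loose form of the site to which MEF2 factors bind, were searched in the same promoters on both strands. They were found in 2029 of 13353 promoters of all genes tested (15.2%). With 72.3% of all genes tested matched, under the 80% set, that share is void and is given as a description. Of the 55 sarcomere and coupling DEGs higher on Collagen I, 45 (81.8%) were matched, and 23 of their 52 promoters held the letters (44.2%). In 5 of these 23 the letters overlapped the TATA box letters TATAAA, as they did in 118 of the 2029. Windows from 5 promoters are shown because they belong to the named muscle genes, with the MEF2 letters, or their reverse complement, in capitals:
*Myog*, chr1:134289920-134289968 (plus strand): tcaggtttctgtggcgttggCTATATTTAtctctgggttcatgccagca
*Myh7b*, chr2:155611061-155611109 (plus strand): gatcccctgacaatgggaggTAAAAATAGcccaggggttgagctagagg
*Tnnt1*, chr7:4515982-4516030 (minus strand): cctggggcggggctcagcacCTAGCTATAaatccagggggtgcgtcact
*Hrc*, chr7:45335149-45335197 (plus strand): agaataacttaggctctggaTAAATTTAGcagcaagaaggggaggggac
*Dmd*, chrX:82948729-82948777 (plus strand): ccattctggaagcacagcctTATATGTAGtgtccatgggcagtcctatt
The first capital lies 64 bases before the RefSeq start of *Myog*, 162 before that of *Myh7b*, 35 before that of *Tnnt1*, 100 before that of *Hrc*, and 121 before that of *Dmd*. In the *Tnnt1* window the marked letters run into TATAAA. Most known MEF2 sites have only A or T as middle bases, where the search took any base. In the *Tnnt1* and *Dmd* windows the middle bases are not all A or T. *Ankrd1*, which was higher on Geltrex™, held the same letters. Over all DEGs the letters were found in 129 of 537 promoters on the Collagen I side and in 80 of 543 on the Geltrex™ side, but with 60.2% and 68.7% of the genes matched these shares are void.

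Energy metabolism differed by smaller folds than the filaments. Beside the DEG counts of this paragraph stand 4.77% of all genes tested that were DEGs higher on Collagen I and 4.56% higher on Geltrex™. Of 62 nuclear genes of the respiratory chain, 34 passed an adjusted p of 0.05, all with higher levels on Collagen I, beside 18.2% of all genes tested. The median was 0.30, and 2 were DEGs, the muscle isoforms *Cox8b* (log2 fold change 1.63, adjusted p = 0.00223, SE 0.36) and *Cox6a2* (log2 fold change 1.24, adjusted p = 0.000364, SE 0.22). In the mitochondrial genome 1 of 13 genes, *mt-Co3*, was a DEG, at 62.0, 55.4, and 154 CPM in the Collagen I samples and 48.9, 44.1, and 39.4 CPM on Geltrex™, and without Collagen I replicate 3 its log2 fold change was 0.41 (adjusted p = 0.187). It also missed the threshold without Geltrex™ replicate 2 (1.03) or 3 (0.95), and with the GC content covariate (0.63), alone or with the replicate block. The same held with the 3 Geltrex™ samples summed into 1 (1.02). Of 35 fatty acid oxidation and TCA cycle genes only 2 were DEGs, the fatty acid transporter *Cd36* (10.3, 10.5, and 4.96 CPM against 1.37, 1.81, and 2.57 CPM) and the binding protein *Fabp3* (21.97, 22.6, and 18.3 CPM against 6.66, 4.86, and 5.19 CPM). Of 38 glycolysis and glycogen genes 5 were DEGs higher on Collagen I, among them muscle glycogen phosphorylase *Pygm* (log2 fold change 1.34, adjusted p = 2.61e-07, SE 0.11) and *Ldhb* (log2 fold change 1.37, adjusted p = 0.000121, SE 0.21). The glycogen-targeting subunits of protein phosphatase 1 were among them as well, with *Ppp1r3a* at 3.42, 4.09, and 1.73 CPM in the Collagen I samples and 0.299, 0.618, and 0.541 CPM on Geltrex™ and *Ppp1r3c* at 3.42, 3.72, and 4.70 CPM and 1.62, 1.69, and 1.80 CPM. At an adjusted p of at most 0.05 with any fold, 10 glycolysis and glycogen genes were higher on each coating. Of 19 hypoxia targets *Ddit4*, an inhibitor of mTORC1, was a DEG higher on Collagen I (log2 fold change 1.78, adjusted p = 2.16e-07, SE 0.15) and *Adm*, adrenomedullin, a DEG higher on Geltrex™ (log2 fold change -1.28, adjusted p = 3.2e-05, SE 0.17). At an adjusted p of at most 0.05 with any fold, 3 hypoxia targets were higher on Collagen I and 12 on Geltrex™, beside 18.2% and 19% of all genes tested. The median over the list was -0.31.

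The uncoated and fibronectin plates place each coating beside others. These comparisons share samples with the main one and with each other, so they are given side by side and not as separate support. Between Collagen I and the control 19 genes were DEGs (0.131% of genes tested), and between Geltrex™ and the control 1325 (9.14%). Between Geltrex™ and fibronectin 577 were DEGs (3.98%), and in that comparison the Collagen I samples take no part. The median over the mitosis genes was 1.48 for Geltrex™ minus control, -0.04 for Geltrex™ minus fibronectin, and -0.29 for Collagen I minus control, on the log2 scale. The thick filament genes had medians of -1.44, 0.19, and 0.04 in the same order.

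The interferon effectors and GTPases were higher on Geltrex™ than on either of these plates. The effectors had a median of 2.15 for Geltrex™ minus control, 2.10 for Geltrex™ minus fibronectin, and 0.23 for Collagen I minus control, and 29 of 40 were DEGs higher on Geltrex™ than on fibronectin (2.26% of all genes tested). The GTPases had 2.71, 2.40, and 0.29, and 14 of 15 were DEGs higher on Geltrex™ than on fibronectin. Single genes showed the same: *Ifit1* was at 0.464 ± 0.345 CPM in the control and 0.758 ± 0.0173 CPM on fibronectin, with a log2 fold change of 5.11 (adjusted p = 8.16e-08) for Geltrex™ minus fibronectin. *Ccn1* (3.60, adjusted p = 9.93e-06), *Myc* (2.83, adjusted p = 5.56e-08), *Atf3* (3.77, adjusted p = 1.32e-11), and *Errfi1* (2.17, adjusted p = 5.19e-09) were likewise higher on Geltrex™ than on fibronectin, whereas *Mki67* (0.08, adjusted p = 0.748) and *Myl2* (-0.16, adjusted p = 0.506) missed the threshold in that comparison.

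**Figure D5:**
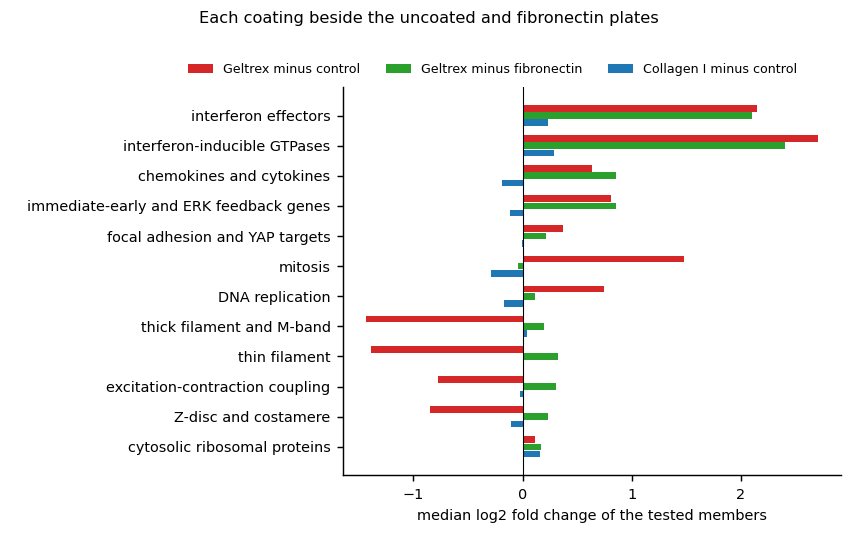
Median log2 fold change of the tested members (horizontal axis, bars from 0) of 12 gene lists in 3 comparisons that share samples. For mitosis and for the filament lists the Geltrex™ minus control bars are long and the Geltrex™ minus fibronectin bars are short, while for the interferon lists both are long, at 2.15 and 2.10 for the effectors, and the Collagen I minus control bars are short in every list.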

How the data were processed

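RNA-seq of 4 groups of 3 samples was analysed, and the Collagen I and Geltrex™ groups were compared. Reads had been trimmed (Trimmomatic), aligned (HISAT2), and assigned to genes (featureCounts) by the authors. The deposited values are raw counts per gene, with no normalization. The genome build, the annotation, the use of strand, and the treatment of multi-mapping reads are not given in the sources used here. All 55536 identifiers of the deposited table were found in GENCODE M21 (GRCm38), which gave names and positions, and promoters came from RefSeq (GRCm38.p6).

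Genes were filtered with filterByExpr (minimum count 10, minimum total 15), scaled by TMM, and tested with edgeR 4.0.16 in R 4.3.3, by a quasi-likelihood fit over all 12 samples with 8 residual degrees of freedom and Benjamini-Hochberg adjustment. The SE was the size of the log2 fold change divided by the square root of F. The method was tested on simulated data. Genes were named by rule: among DEGs averaging 1 CPM or more with no overlap of samples, the 10 with the highest and the 10 with the lowest log2 fold change, the up to 4 DEGs of each list with the largest change, and a fixed set of pathway genes. The members and lists were chosen with earlier results of these data known. Some genes chosen for naming are not reported here. Genes outside this rule and 5 added lists were chosen after their values were seen. Alternatives were DESeq2 1.42.0, other scaling, filters, and thresholds, the GC content of the libraries, as the study lists it, as a covariate, a replicate block, the 6 samples alone, and leaving out each sample.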

Additional observations from a re-analysis of the deposited data

How the results depend on the processing

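Of 154 genes past the threshold among those chosen for naming, 142 kept their direction and their side of the threshold under every alternative that tested them. The filter of at least 10 counts in every sample kept only 124 of the 154 for testing. With DESeq2 670 genes were DEGs higher on Collagen I and 673 higher on Geltrex™, with relative log expression scaling 685 and 674, and when each sample was left out in turn 600 to 712 and 632 to 686. Requiring at least 10 counts in every sample, which removes genes close to 0 on either coating, left 388 DEGs higher on Collagen I, of which 371 were among the main 691, and moved their share of all DEGs from 51.1% to 45.4%. It left 17 of the interferon effectors, 4 of the interferon-inducible GTPases, and 6 of the chemokines and cytokines. Summing the 3 Geltrex™ samples into 1, with its spread taken from the other groups, left 432 DEGs higher on Collagen I, 415 of them shared with the main result, and *Tap1*, *Fras1*, *Hoxc8*, and *Malat1* missed the threshold. *H2-T10*, *mt-Co3*, *Des*, *Ifnar1*, *Stat2*, and *Tlr3* missed it in that fit as well. With the replicate block and the GC content covariate together, *Tap1*, *mt-Co3*, *Ifnar1*, *Stat2*, *Gbp5*, and *Oas3* missed it. With the covariate alone, *mt-Co3*, *Ifnar1*, and *Gbp5* missed it. Without a fold minimum the counts were 2633 and 2751, and with a minimum of 2 on the log2 scale they were 160 and 170. The replicate block gave 680 and 671, and with GC content as a covariate as well 662 and 656. Samples with the same number did not deviate together, with correlations of 0.020, -0.047, and -0.037. The Geltrex™ samples deviated little from each other, so these correlations cannot decide whether the same number marks a shared batch. The direction turned in genes that missed the threshold: with the GC content covariate *Ifngr1* was at 0.013, *Itgb1* at -0.00504, and *Col4a1* at 0.098, and with the replicate block and the covariate at 0.012, -0.030, and 0.11, with *Fos* at 0.034. With each sample left out in turn *Pax7* lay between -0.31 and 0.56 and *Itgb1* between -0.034 and 0.15. The cause of these changes was not tested. Depth limits *Ifnb1*, *Itga2*, and the untested interferon genes, for which no difference or only a wide ratio can be given.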

Other observations

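Further gene groups differed between Collagen I and Geltrex™. The lists in this part were chosen after their values were seen, so their counts are a description. Of 18 muscle ubiquitin ligases and atrophy genes, 6 were DEGs, all higher on Collagen I, beside 4.77% of all genes tested. *Trim63*, the sarcomere ligase MuRF1, was at 32.7, 31.2, and 26.8 CPM on Collagen I and 5.55, 4.61, and 4.42 CPM on Geltrex™ (log2 fold change 2.63, adjusted p = 4.36e-09, SE 0.15), whereas *Fbxo32*, the other ligase usually followed in atrophy, was higher on Collagen I by under 2-fold (log2 fold change 0.52, adjusted p = 0.000187, SE 0.08). *Nos1*, the neuronal nitric oxide synthase that dystrophin anchors, was at 13.7, 13.4, and 13.2 CPM and 2.22, 2.27, and 2.62 CPM (log2 fold change 2.50, adjusted p = 3.95e-08, SE 0.18). Of 29 genes of homologous recombination and Fanconi repair, which are made mainly in S phase, 14 were DEGs, all higher on Geltrex™.

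Of 39 Hox genes listed, 21 were tested and 7 were DEGs, all higher on Collagen I, beside 4.77% of all genes tested. The median log2 fold change of those tested was 0.57. *Hoxc8*, a regional identity factor, was at 3.94, 4.57, and 9.27 CPM on Collagen I and 1.37, 0.700, and 1.26 CPM on Geltrex™ (log2 fold change 2.41, adjusted p = 0.00321, SE 0.56), and missed the threshold with the 3 Geltrex™ samples summed into 1 (2.41). Of 5 tested nuclear-retained noncoding RNAs 3 were DEGs, all higher on Collagen I: *Neat1*, the scaffold of paraspeckles, was at 577, 611, and 817 CPM on Collagen I and 126, 111, and 135 CPM on Geltrex™ (log2 fold change 2.43, adjusted p = 1.06e-05, SE 0.29), *Malat1* at 2822, 2804, and 6323 CPM and 1197, 1340.1, and 1585 CPM (log2 fold change 1.54, adjusted p = 0.00127, SE 0.31), and *Kcnq1ot1*. The *Malat1* value missed the threshold with the Geltrex™ samples summed (1.53). The highest *Malat1* level was that of Collagen I replicate 3, which also had the highest mitochondrial share. By annotated type, 61 of 402 tested long intergenic noncoding RNAs were DEGs higher on Collagen I and 20 higher on Geltrex™, and 41 and 19 of 360 antisense RNAs, against 446 and 569 of 12447 protein-coding genes. Long intergenic, antisense, and unassigned transcripts together took 1.16% to 1.54% of counts on Collagen I and 0.876% to 0.930% on Geltrex™. Whether the strand was used in counting is not given in the sources used here, so reads of an antisense RNA and of its partner cannot be told apart.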
